A study of Mus musculus with 6 samples.

Results

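Heparan sulfate is a sulfated sugar chain carried by proteoglycans at the cell surface and in the extracellular matrix, and its genes were examined here in 4T1 cells with and without an shRNA against NFAT1. The genes were chosen by symbol, as the enzymes that build, sulfate and edit the chain and the core proteins that carry it. Earlier results of these data were known when they were chosen, so counts over them are descriptions. Of 38 listed genes, 36 were measured among the 18193 genes of the arrays, and Ndst1 and Xylt1 were not analysed here. 4T1 is a mouse mammary carcinoma line that is tumorigenic and metastatic. The first group was transduced with a vector expressing NFAT1 shRNA and the second with control shRNA. Both groups were 4T1 cells in adherent culture that were selected for 10 days before collection, and 200 ng of total RNA per sample was labelled for an Affymetrix mouse array. Each group held 3 arrays. Nothing in the labels states that the 3 came from separate cultures. The p-values therefore cover only the spread from array to array, which may be technical.

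Heparan sulfate synthesis starts with a short sugar linker on a serine of the core protein, on which the EXT enzymes polymerise the chain. N-deacetylase N-sulfotransferases, an epimerase and the 2-O, 6-O and 3-O sulfotransferases then modify stretches of the chain, and the pattern of sulfation sets which growth factors, chemokines and protease inhibitors it binds. Syndecans and glypicans hold the chains at the cell surface, perlecan and agrin hold them in basement membranes, and sulfatases and heparanase alter them outside the cell. NFAT1 is a calcium-dependent transcription factor, and its gene is Nfatc2.

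Values are log2 RMA signals, and differences are NFAT1 shRNA minus control shRNA on the log2 scale, so 1 unit is a 2-fold change. Each gene is represented by its brightest probe set, judged by the mean of the 6 arrays. Passing the test means an adjusted p under 0.05 with limma over all 18193 genes. Signals of different genes come from different probes and were not set against each other. Array medians lay between 5.42 and 5.48. Of 6 Nfatc2 probe sets, 4 were lower and 2 higher in NFAT1 shRNA cells and 0 passed the test over probe sets, while 3 had an unadjusted p under 0.05. The brightest of the 6, 1426032_at, went against the label. It read 6.19, 6.48 and 6.09 in NFAT1 shRNA cells, against 5.92, 5.92 and 5.86 in control cells, at a difference of 0.35 (adjusted p = 0.251 over probe sets). The other 2 with an unadjusted p under 0.05 were lower, 1439205_at by a difference of -0.76 (adjusted p = 0.0707) and 1426031_a_at by -0.26 (adjusted p = 0.279). The arrays therefore did not settle the direction of the targeted transcript, and NFAT1 shRNA cells below means the arrays labelled so. Over all probe sets, the correlation of NFAT1 shRNA 1 was 0.985 to 0.986 with its own group and 0.991 to 0.995 with the control arrays. Of 9 epithelial markers, 8 read at least 6 on every array, and Krt5 was dimmer. The defining leukocyte marker Ptprc and the endothelial marker Pecam1 read at most 3.06 and 3.46 on any array. The leukocyte list's Cd68 and the fibroblast list's Pdgfra were brighter and read at least 6.22 and 6.30 on every array. Both were higher in NFAT1 shRNA cells with overlapping groups, at differences of 0.76 and 0.49 (limma, adjusted p = 0.406 and 0.646). In these 4 marker lists 0 genes passed the test. The mean of the epithelial list was 10.83 to 10.92 on the NFAT1 shRNA arrays and 11.08 to 11.10 on the control arrays, with Krt14 at a difference of -2.12 (adjusted p = 0.123), and its part in the results below was not tested.

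Of the 36 heparan sulfate genes, 1 rose, 0 fell and 35 did not pass. Of all genes, 0.511% passed, 0.181% as a rise and 0.330% as a fall. The gene that rose was Hs3st1, a 3-O sulfotransferase that completes the antithrombin-binding site of heparan sulfate. With an unadjusted p under 0.05 there were 8 members, or 22.2% against 17.1% of all genes. Of these 4 were higher and 4 lower, where 10.1% and 7.01% of all genes were. The groups did not overlap for 9 members, or 25%, against 22.8% of all genes. NFAT1 shRNA lay above control for 4 of these, or 11.1% of members against 14.2% of all genes, and below it for 5, or 13.9% against 8.61%. The median difference was -0.017 over the members and 0.043 over all genes, and the median absolute difference was 0.15 and 0.14. Among genes with a mean of at least 6 in the higher group, the median difference was -0.13 over 23 members and 0.019 over all genes.

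Hs3st1 was read by a single probe set, 1423450_a_at. Its signal was 8.62, 9.18 and 8.94 on NFAT1 shRNA arrays 1 to 3, against 6.91, 7.47 and 7.18 on control arrays 1 to 3. Each NFAT1 shRNA array lay above every control array, with a gap wider than the spread within either group. The mean was 8.92 ± 0.28 in NFAT1 shRNA cells and 7.19 ± 0.28 in control cells (SD, n = 3 each), a rise of 1.73 ± 0.19 (SE) or 3.31-fold (limma, adjusted p = 0.0306). The 95% interval of the difference ran from 1.27 to 2.19. An absolute difference of this size or larger was found for 0.396% of all genes. The exact permutation p over the 20 splits of the arrays was 0.1 (2-sided), and groups of 3 cannot reach a smaller value. The rise was 1.59 to 1.87 with any single array left out, but it passed only without NFAT1 shRNA 1 (adjusted p = 0.00441). It did not pass without NFAT1 shRNA 2 (0.0931) or 3 (0.0749), nor without control 1 (0.178), 2 (0.120) or 3 (0.253). Without any one of these controls 0 genes of the whole array passed with limma, with 1698, 2247 and 1761 at an unadjusted p under 0.05.

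The promoter windows of Hs3st1 and of Ext2, the member with the next smallest p, are shown because the targeted factor belongs to a family that binds a GGAAA core. They are the 250 bases before the annotated start in RefSeq (GRCm38.p6), read 5′ to 3′ on the strand of the gene, with GGAAA or its reverse complement TTTCC in capitals.
Hs3st1, chr5:39644632-39644881, minus strand: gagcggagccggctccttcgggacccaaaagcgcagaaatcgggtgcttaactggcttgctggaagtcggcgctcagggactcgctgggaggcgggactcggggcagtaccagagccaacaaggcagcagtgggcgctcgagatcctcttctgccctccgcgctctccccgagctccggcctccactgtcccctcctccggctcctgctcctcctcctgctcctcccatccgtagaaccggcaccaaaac
Ext2, chr2:93822569-93822818, minus strand: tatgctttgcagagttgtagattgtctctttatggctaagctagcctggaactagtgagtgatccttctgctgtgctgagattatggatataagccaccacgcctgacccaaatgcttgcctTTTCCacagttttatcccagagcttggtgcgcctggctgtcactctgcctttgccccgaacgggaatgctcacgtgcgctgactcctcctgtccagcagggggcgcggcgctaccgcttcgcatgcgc
The Hs3st1 window held 0 matches and the Ext2 window held 1, which begins 128 bases before the start. These letters occurred in 55.6% of all 32851 windows and in 61.8% of the 34 windows of the 29 members in the promoter table. The match is a description of the letters in these windows.

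None of the other 3 genes of 3-O sulfation passed. Hs3st2, which in mice is best known from the nervous system, read 7.37, 7.15 and 7.17 on the NFAT1 shRNA arrays, against 7.19, 7.09 and 7.28 on the control arrays. These groups overlapped, and the difference was 0.04 with a 95% interval from -0.19 to 0.28. That reading is from 1440814_x_at only. The other Hs3st2 probe sets, 1438624_x_at and 1454784_at, were dim, with means of 4.23 and 3.92. They differed by -0.16 without overlap and by 0.12 with overlap. Hs3st3a1 and Hs3st3b1, whose products make the form of 3-O sulfation that herpes simplex virus can use for entry, differed by 0.0049 (95% interval -0.17 to 0.18) and 0.04 (-0.24 to 0.32). The Hs3st3a1 difference changed sign when arrays were scaled by their medians or quantile-normalized again. Both genes were dim, with means of at most 5.08, where RMA compresses differences.

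**Figure D1:**
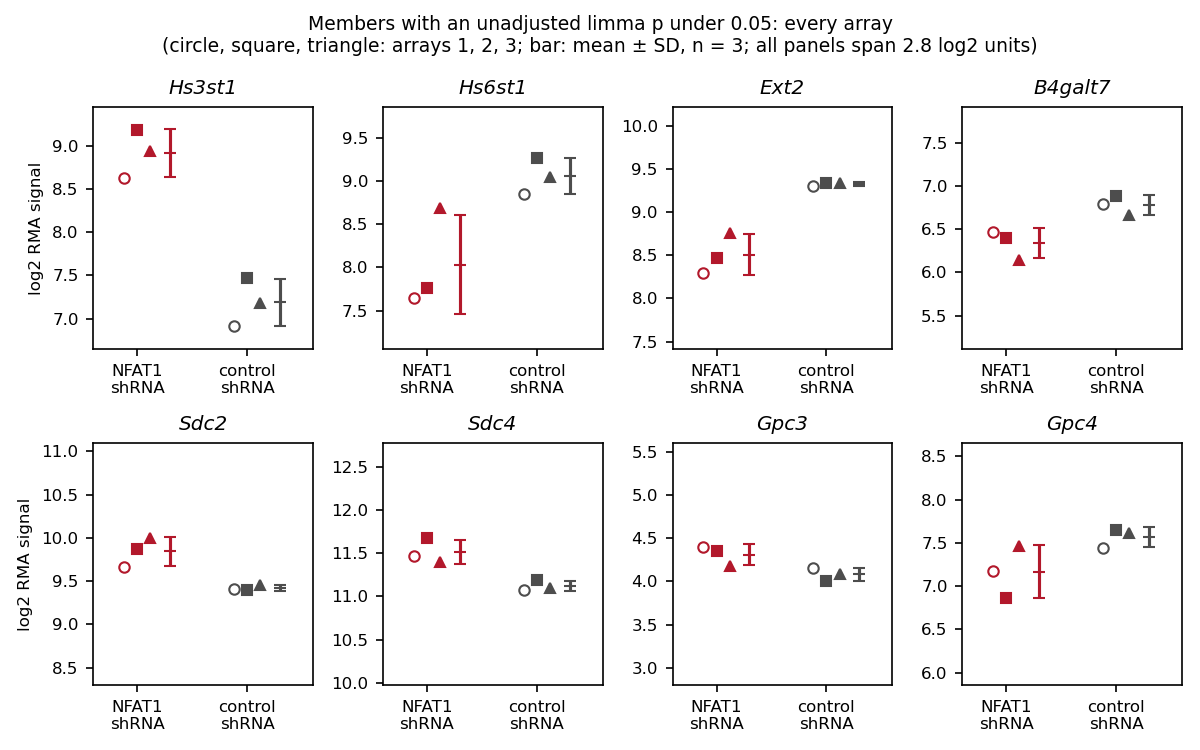
Log2 RMA signal (y axis) on every array for the 8 members with an unadjusted p under 0.05, with NFAT1 shRNA arrays in red on the left and control arrays in grey on the right of each panel; circles, squares and triangles are arrays 1, 2 and 3, and bars are the mean ± SD (n = 3). The Hs3st1 groups stand 1.73 apart, Hs6st1 shows NFAT1 shRNA 3 away from the other NFAT1 shRNA arrays, and the Gpc4 groups overlap.

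Among the enzymes that act on the other positions of the chain, Hs6st1, a 6-O sulfotransferase of glucosamine, had the lowest difference of all members. On its only probe set it read 7.64, 7.77 and 8.69 on the NFAT1 shRNA arrays, against 8.85, 9.27 and 9.05 on the control arrays. All NFAT1 shRNA arrays lay below the controls, but NFAT1 shRNA 3 was closer to the controls than to the other NFAT1 shRNA arrays. The mean was 8.03 ± 0.57 in NFAT1 shRNA cells and 9.06 ± 0.21 in control cells (SD, n = 3 each). The difference was -1.02 ± 0.28 (SE) and did not pass (adjusted p = 0.187). Glce, the epimerase that turns glucuronic into iduronic acid, read 9.19, 8.95 and 9.48 in NFAT1 shRNA cells, against 9.49, 9.36 and 9.43 in control cells. The Glce groups overlapped, and the difference was -0.22 (adjusted p = 0.440). Its other probe sets, 1425876_a_at and 1440386_at, were dim, with means of 4.74 and 3.17, and differed by -0.12 and -0.0014. On the probe set used, the Glce difference was -0.091 when NFAT1 shRNA 2 was left out and -0.35 when NFAT1 shRNA 3 was. Hs2st1, the only 2-O sulfotransferase of heparan sulfate, differed by -0.03 with a 95% interval from -0.30 to 0.24. Hs6st2 and Hs6st3, the other 6-O sulfotransferases, were dim and differed by -0.0062 and 0.12.

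The N-deacetylase N-sulfotransferases replace acetyl groups on glucosamine with sulfate, and none of the 3 measured passed. Ndst2 differed by -0.08, with a 95% interval from -0.33 to 0.16. Ndst3 read 4.08, 3.81 and 4.07 in NFAT1 shRNA cells, against 3.85, 3.55 and 3.81 in control cells. Ndst4 read 4.31, 4.10 and 4.16 in NFAT1 shRNA cells, against 4.28, 4.24 and 4.44 in control cells. Both genes lay below the array medians with overlapping groups, at differences of 0.25 and -0.13.

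Ext2, which forms the chain-polymerising complex together with Ext1, came closest to passing after Hs3st1. It read 8.29, 8.47 and 8.76 on the NFAT1 shRNA arrays, against 9.30, 9.34 and 9.33 on the control arrays. The controls lay within a narrow band and every NFAT1 shRNA array was below it. The mean was 8.51 ± 0.23 in NFAT1 shRNA cells and 9.32 ± 0.02 in control cells (SD, n = 3 each). The difference was -0.81 ± 0.13 (SE) with an adjusted p of 0.0640. Its other 2 probe sets were dim, with means of 4.07 and 3.88, and differed by -0.00032 and -0.0062. With the mean of the 3 probe sets Ext2 differed by -0.27 (adjusted p = 0.239). Ext1 read 8.74, 8.16 and 8.75 in NFAT1 shRNA cells, against 8.74, 8.80 and 8.80 in control cells. Only NFAT1 shRNA 2 stood apart for Ext1, and the difference was -0.23 (adjusted p = 0.496), or -0.032 without that array. The related genes Extl1, Extl2 and Extl3, of which Extl3 starts the chain on the linker, differed by 0.13, -0.13 and -0.15 and did not pass.

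The linker enzymes add xylose, 2 galactoses and glucuronic acid to the core protein. B4galt7, which adds the first galactose, read 6.47, 6.40 and 6.14 in NFAT1 shRNA cells, against 6.79, 6.88 and 6.66 in control cells. The groups did not overlap on either of its 2 probe sets, which differed by -0.44 and -0.43 (adjusted p = 0.173 over genes for the brighter). B3galt6, which adds the second galactose, read 7.01, 6.44 and 6.57 in NFAT1 shRNA cells, against 6.72, 6.35 and 6.50 in control cells. These groups overlapped, at a difference of 0.15. Xylt2, a xylosyltransferase, and B3gat3, which adds glucuronic acid, differed by 0.05 and -0.04, with 95% intervals from -0.16 to 0.26 and from -0.28 to 0.20.

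**Figure D2:**
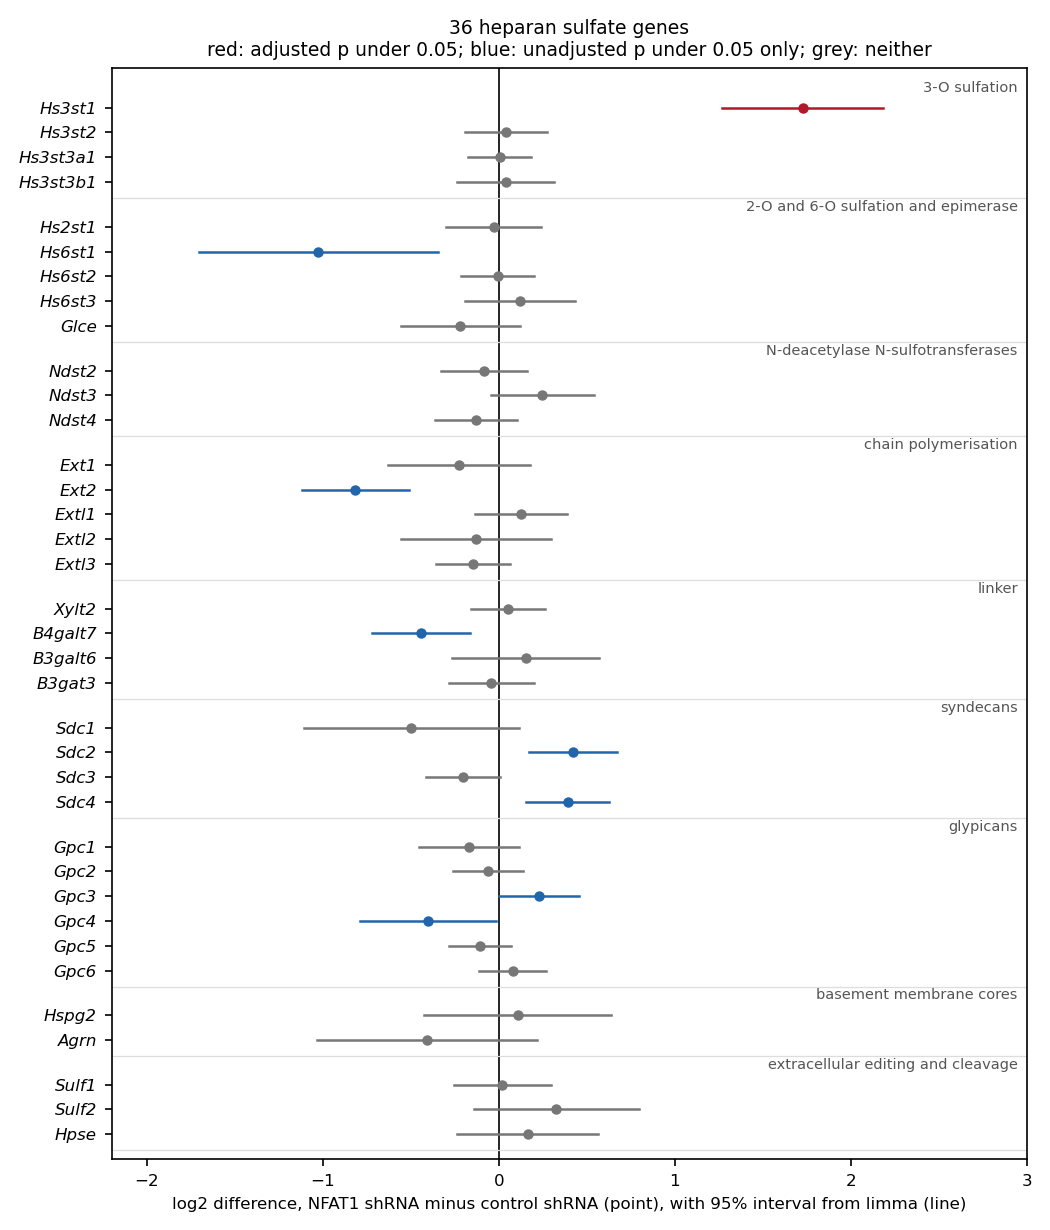
Log2 difference between NFAT1 shRNA and control shRNA cells (x axis) for each of the 36 members in order of role, as a point with its 95% interval from limma. Hs3st1 in red passed the test, the 7 members in blue had only an unadjusted p under 0.05, and the other 28 in grey had neither.

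Syndecans, the transmembrane carriers of heparan sulfate, went in both directions, and none of the 4 passed. Sdc2 read 9.66, 9.87 and 10.00 in NFAT1 shRNA cells, against 9.40, 9.40 and 9.46 in control cells. Sdc4, the syndecan of focal adhesions, read 11.46, 11.67 and 11.40 in NFAT1 shRNA cells, against 11.08, 11.19 and 11.10 in control cells. Neither gene's groups overlapped, and the differences were 0.42 ± 0.10 and 0.39 ± 0.10 (SE; adjusted p = 0.157 and 0.161). Of the 4 Sdc2 probe sets the 2 brightest differed by 0.42 and 0.29, and the other 2 by 0.00093 and 0.04. The second Sdc4 probe set differed by 0.31 with overlapping groups.

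Sdc1, the main syndecan of epithelia, read 10.72, 10.27 and 9.77 in NFAT1 shRNA cells, against 10.95, 10.47 and 10.84 in control cells. The groups overlapped, with NFAT1 shRNA 3 lowest and control 2 lowest of the controls. The mean was 10.25 ± 0.48 in NFAT1 shRNA cells and 10.75 ± 0.25 in control cells (SD, n = 3 each). The difference was -0.50 ± 0.25 (SE; adjusted p = 0.353). Leaving out NFAT1 shRNA 3 gave -0.25, leaving out NFAT1 shRNA 1 gave -0.73 (adjusted p = 0.0510), and with array weights it passed (-0.66, adjusted p = 0.0430). All 4 Sdc1 probe sets were lower, by differences from -0.52 to -0.37. Sdc3 differed by -0.20 without overlap on the probe set used, while its other 2 probe sets differed by 0.0042 and 0.01.

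Glypicans are attached to the membrane by a lipid anchor, and none of the 6 passed. Gpc4 read 7.18, 6.86 and 7.47 in NFAT1 shRNA cells, against 7.44, 7.65 and 7.62 in control cells. NFAT1 shRNA 3 lay within the control range, and the difference was -0.40 ± 0.16 (SE; adjusted p = 0.283) on this probe set and -0.51 on the other. Without NFAT1 shRNA 2 it was -0.25. Gpc3 read 4.40, 4.35 and 4.17 in NFAT1 shRNA cells, against 4.15, 4.00 and 4.09 in control cells. It was dim, with groups that did not overlap and a difference of 0.23 (adjusted p = 0.289). Gpc1, the only other glypican with a mean of at least 6, differed by -0.17, with a 95% interval from -0.45 to 0.12. Gpc2, Gpc5 and Gpc6 were dim and differed by -0.06, -0.11 and 0.08.

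The basement membrane cores differed by less than the SD of their NFAT1 shRNA arrays. Agrn, which encodes agrin, read 9.96, 10.83 and 10.81 in NFAT1 shRNA cells, against 10.70, 11.20 and 10.93 in control cells. NFAT1 shRNA 1 stood apart, and the difference was -0.41 ± 0.26 (SE; adjusted p = 0.437), or -0.12 without that array. Hspg2, which encodes perlecan, read 8.13, 8.79 and 8.62 in NFAT1 shRNA cells, against 8.07, 8.70 and 8.46 in control cells. These groups overlapped across most of their range, and the difference was 0.11. The second Hspg2 probe set differed by 0.27 without overlap (adjusted p = 0.299 over probe sets).

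**Figure D3:**
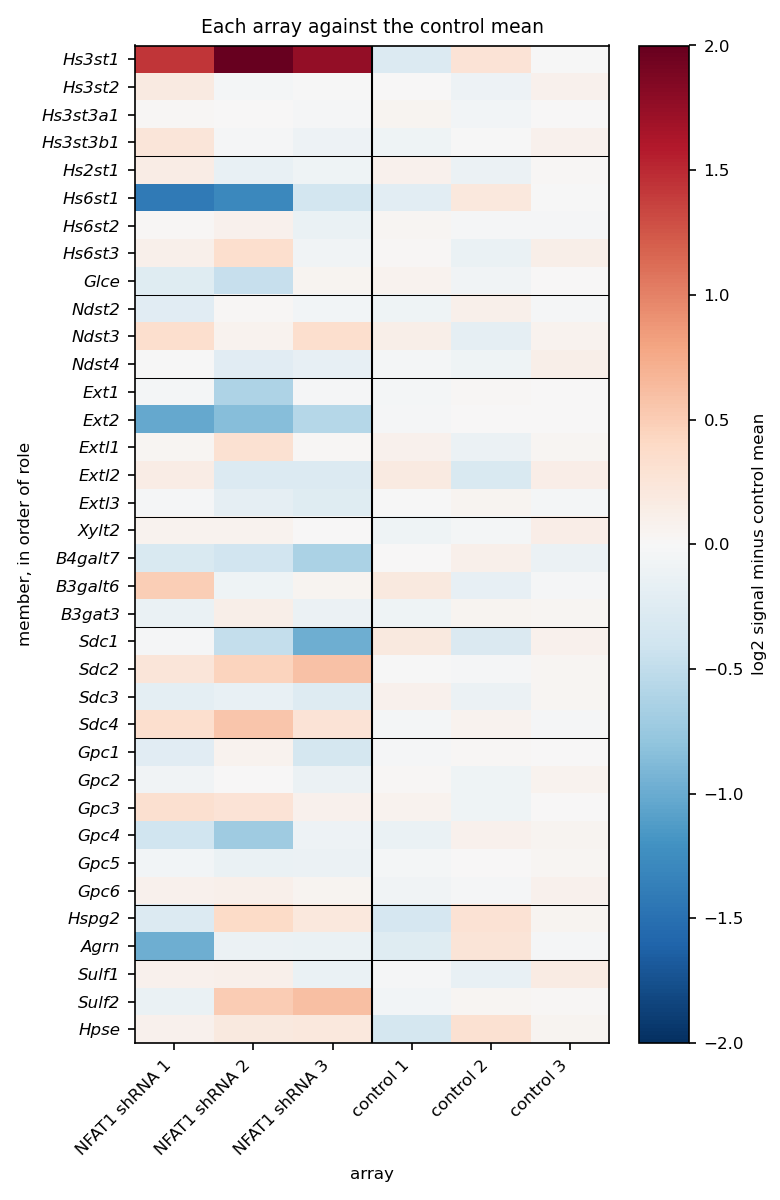
Log2 signal minus the control mean (colour) for the 36 members (rows, in order of role) on each of the 6 arrays (columns, NFAT1 shRNA on the left). Hs3st1 is high on all 3 NFAT1 shRNA arrays, Ext2 is low on all 3, and Agrn and Sulf2 on NFAT1 shRNA 1 differ from NFAT1 shRNA 2 and 3.

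Sulf2, a secreted sulfatase that removes 6-O sulfate groups, was read in opposite directions by its probe sets. On 1442408_at, the brightest, it read 7.75, 8.40 and 8.49 in NFAT1 shRNA cells, against 7.83, 7.92 and 7.92 in control cells. NFAT1 shRNA 1 lay below the controls there and NFAT1 shRNA 2 and 3 above them, and the difference was 0.33 ± 0.20 (SE; adjusted p = 0.411 over genes). On 1447602_x_at it read 7.33, 7.10 and 7.60 in NFAT1 shRNA cells, against 7.97, 7.90 and 8.02 in control cells. On 1430388_a_at it read 5.27, 4.80 and 5.34 in NFAT1 shRNA cells, against 5.77, 5.60 and 5.80 in control cells. Every NFAT1 shRNA array was below every control array on the last 2 probe sets, at differences of -0.62 and -0.59 (adjusted p = 0.151 and 0.197 over probe sets). With the mean of its probe sets Sulf2 differed by -0.29 (adjusted p = 0.281), so no direction was settled. The part of the transcript read by each probe set was not analysed here.

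**Figure D4:**
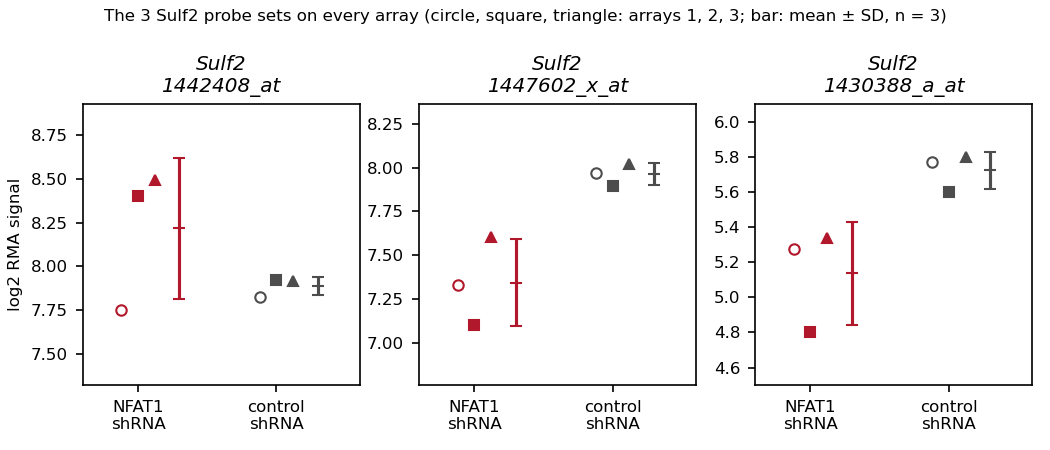
Log2 RMA signal (y axis) of the 3 Sulf2 probe sets on every array, with NFAT1 shRNA arrays in red on the left and control arrays in grey on the right of each panel, and bars for the mean ± SD (n = 3). The groups overlap on 1442408_at, while NFAT1 shRNA arrays lie below control arrays on the other 2 probe sets.

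Sulf1, the related sulfatase, differed by 0.02 and was dim on all 3 probe sets. That difference changed sign with quantile normalization repeated. Hpse, which encodes the chain-cleaving enzyme heparanase, read 4.44, 4.55 and 4.56 in NFAT1 shRNA cells, against 4.00, 4.65 and 4.40 in control cells. The Hpse groups overlapped, at a difference of 0.16.

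The members were read by 81 probe sets in all, of which 1 passed the test over probe sets, against 0.200% of all probe sets. With an unadjusted p under 0.05 there were 15, or 18.5%, against 15.7% of all probe sets. Of the 24 members with more than 1 probe set, 14 had all of them in a single direction, or 58.3%, against 57.7% of all such genes. Of the 36 members, 13 had a mean under 6 in both groups, and the absolute difference of each of these was at most 0.25. The other 23 had a mean of at least 6 in at least 1 group.

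**Figure D5:**
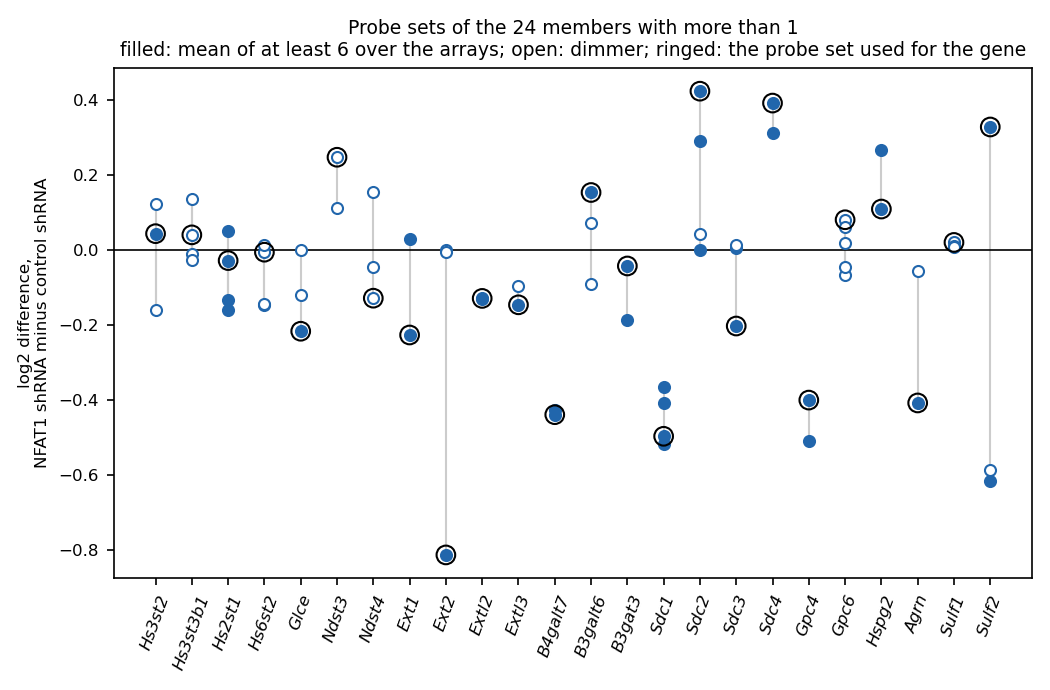
Log2 difference between NFAT1 shRNA and control shRNA cells (y axis) of every probe set of the 24 members that have more than 1 (x axis). Filled points have a mean of at least 6 over the arrays, open points are dimmer, and a ring marks the probe set used for the gene; the 4 Sdc1 probe sets lie together below 0, and those of Sulf2 lie on both sides of it.

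Some members that did not pass with all arrays passed when an array was left out. Without NFAT1 shRNA 1 there were 6 members past the threshold, or 16.7%, against 18.4% of all genes. These were Hs3st1, Ext2 (-0.71, adjusted p = 0.0104), B4galt7 (-0.51, 0.0320), Sdc2 (0.51, 0.0139), Sdc4 (0.42, 0.0462) and Sulf2 (0.56, 0.0110). Without NFAT1 shRNA 3 there were 2, Hs6st1 (-1.35, adjusted p = 0.0430) and Ext2 (-0.94, 0.0380), against 0.363% of all genes. With array weights, which estimate the reliability of each array, 8 members passed, or 22.2%, against 18.6% of all genes. These were Hs3st1, Hs6st1, Ext2, Sdc1, Sdc2, Sdc4, Gpc4 and Sulf2. Both Sulf2 results are from its brightest probe set, while its other probe sets differed by -0.62 and -0.59 with all arrays. Over all settings tried, the adjusted p of Ext2 ran from 0.00658 to 0.361, and that of Hs6st1 from 0.0242 to 0.687.

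Other genes of glycosaminoglycan metabolism were described from 4 further lists, and 0 of their genes passed, with any unadjusted p given as a value only. The lists were chosen with earlier results of these data known, so their counts are descriptions. The chondroitin and dermatan sulfate list covers the sister chains built on the same linker. Of its 16 genes 6, or 37.5%, had an unadjusted p under 0.05, against 17.1% of all genes. Of these 3 were higher and 3 lower, where 10.1% and 7.01% of all genes were. Chst11, a chondroitin 4-O sulfotransferase, differed by -0.96 ± 0.15 (SE; adjusted p = 0.0584), while its other probe set was higher and the mean of both differed by -0.48. Dse and Dsel, the dermatan sulfate epimerases, differed by -1.34 ± 0.30 and -0.73 ± 0.19 (SE; adjusted p = 0.134 and 0.173). On the probe set used, each of these genes had all NFAT1 shRNA arrays below all control arrays.

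In the list of precursor supply and linker control, 5 of 14 measured genes, or 35.7%, had an unadjusted p under 0.05. The share over all genes was 17.1%. Of the 5 genes, 2 were higher and 3 lower. Papss1, which makes the sulfate donor PAPS, differed by 0.71 (adjusted p = 0.219). Ugp2, which makes UDP-glucose, differed by 0.44 (0.169), and Uxs1, which makes the UDP-xylose for the linker, by -0.57 (0.219). Of 10 measured genes of lysosomal degradation, 3 had an unadjusted p under 0.05. Gusb, the lysosomal beta-glucuronidase, differed by -0.67 (adjusted p = 0.103), and Sumf1, which activates sulfatases, by 0.25 (0.224). Arsg, the sulfatase that removes 3-O sulfate groups in the lysosome, read 4.94, 5.14 and 5.05 in NFAT1 shRNA cells, against 4.80, 4.89 and 4.68 in control cells, at a difference of 0.26 (adjusted p = 0.261), or 0.13 on its probe set that is not of the _s_at kind.

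The last list held other genes that carry heparan sulfate or are only linked to it. Of its 8 measured genes 4, or 50.0%, had an unadjusted p under 0.05, against 17.1% of all genes. Nrp1, a receptor for semaphorins and VEGF that can carry a glycosaminoglycan chain, differed by -2.03 ± 0.38 (SE; adjusted p = 0.0892). Notum, a secreted esterase that inactivates Wnt ligands, differed by 1.44 (0.156), and Col18a1, a basement membrane collagen that carries heparan sulfate, by 0.90 (0.169). Over these 4 lists and those of growth factors and of other core proteins, 25 of 75 genes, or 33.3%, had an unadjusted p under 0.05, against 17.1% of all genes.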

How the data were processed

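Gene expression was measured on 6 Affymetrix mouse arrays, 3 of NFAT1 shRNA and 3 of control shRNA cells, grouped and numbered by the labels. The authors deposited log2 signals computed by RMA, as the submitters' processing notes name it, in a version not given in the sources used here. RMA corrects background, equalises the arrays' distributions and summarises probes, so a shift of most transcripts would be hidden and dim signals are compressed. Values ran from 1.80 to 14.22. Of 45037 probe sets, 34945 had a single gene symbol in the platform annotation, giving 18193 genes, each represented by its brightest probe set. The gene table GRCm38.p6 supplied names only, and promoter windows came from RefSeq of the same build.

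The comparison used limma 3.58.1 (lmFit, then eBayes; R 4.3.3), without covariates or a filter, with Benjamini-Hochberg adjustment over all genes and 2-sided p-values. Data were simulated for 18193 genes, 200 of them changed, with a spread drawn independently for each gene and array. There 10.6% of changed genes were recovered at a log2 change of 0.5, 85.1% at 1 and 97.0% at 2, and 3 unchanged genes were called. Deviations of the real arrays were correlated across genes, up to 0.69 between 2 arrays, so these shares need not hold for them. Values are given for members that passed, had an unadjusted p under 0.05 or differed by at least 0.5 with a mean of at least 6, and for the 2 of each role with the largest differences, and for up to 3 genes per further list. The members, lists and rules were chosen with earlier results of these data known, so counts over them are descriptions. Alternatives covered dim genes, scaling, variance prior, array weights, replicate block, arrays left out, probe set choice and a test against 0.25. Tables and figures were made with Python 3.11.15. There is no read depth on arrays; precision is limited by how many there are. The replicate numbers were checked as pairs by correlating deviations from the group means. Not every NFAT1 shRNA array correlated best with the control of its own number, and the arrays were treated as unpaired. This does not exclude that the arrays were paired.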

Additional observations from a re-analysis of the deposited data

How the results depend on the processing

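Hs3st1 was higher in NFAT1 shRNA cells in all 16 alternatives and passed in 10 of them, with adjusted p from 0.00272 to 0.253. It did not pass against a log2 difference of 0.25 (difference 1.73, adjusted p = 0.0660), where 0 members and 23 genes passed, with 933 genes at an unadjusted p under 0.05. With any single array left out its difference ran from 1.59 to 1.87, the members passing from 0 to 6 and the genes passing from 0 to 3349. With array weights 8 members and 3380 genes passed, and control 3 had a weight of 10.4 against 0.25 to 1.01 for the other arrays; the cause was not tested. Without control 3 and NFAT1 shRNA 1 together, Hs3st1 was the 1 member among 407 genes passing (1.87, adjusted p = 0.0447). With the replicate number as a block, 2 members passed, Hs3st1 (0.00364) and Ext2 (0.0241), and 792 genes. Deviations from the group means of same-numbered arrays correlated at 0.69, 0.53 and -0.042. NFAT1 shRNA 1 and 2 each correlated best with the control of their own number, while NFAT1 shRNA 3 correlated best with control 2 (0.46). Whether the arrays form pairs was therefore not settled, and the main fit treated them as unpaired. The members' median difference was -0.13 among those with a mean of at least 6 in the higher group, against 0.019 for all such genes, and -0.077 with array weights, against 0.027 for all genes. Of 284 values of the other 18 members given in full, 260 kept their direction and side of the threshold, 15 gained the threshold and 9 changed direction. With single arrays left out, Hs3st2 ran from -0.024 without NFAT1 shRNA 1 to 0.090 without control 3, with -0.0047 without control 2, and was -0.070 with array weights. B3galt6 ran from -0.015 without NFAT1 shRNA 1 to 0.27 without NFAT1 shRNA 2, and was -0.028 without NFAT1 shRNA 1 and control 3. Hspg2 ran from -0.060 without control 1 to 0.30 without NFAT1 shRNA 1, with -0.029 without NFAT1 shRNA 2, and Hpse from -0.012 without control 1 to 0.32 without control 2. The ninth was Sulf2 with the mean of its probe sets (-0.29). For Sulf2 the probe sets disagree; the cause of the others was not tested. Of 238 values of the 15 other genes named, 38 gained the threshold and 0 changed direction. Dim probe sets limit what can be seen of the 13 members with a mean under 6 in both groups.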

Other observations

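Growth factors and receptors that act with heparan sulfate were described from a list of 19 genes. With limma 0 passed. An unadjusted p under 0.05 was found for 7, or 36.8%, against 17.1% of all genes. Of these 6 were higher and 1 lower, where 10.1% and 7.01% of all genes were. The list was chosen with earlier results of these data known, so its counts are descriptions, and 13 of its genes had a mean under 6 in both groups. Met, the receptor of hepatocyte growth factor, read 10.95, 10.66 and 10.92 in NFAT1 shRNA cells, against 11.37, 11.50 and 11.43 in control cells. Every NFAT1 shRNA array was below every control array, at a difference of -0.59 ± 0.10 (SE; adjusted p = 0.0801), and both Met probe sets were lower. Its adjusted p ran from 0.00951 to 0.464 over the alternatives. Fgfr2, a receptor of fibroblast growth factors, read 6.88, 7.06 and 7.20 in NFAT1 shRNA cells, against 6.59, 6.64 and 6.29 in control cells, a difference of 0.54 (adjusted p = 0.158). Of its 3 probe sets 2 were higher and 1 lower, and their mean differed by 0.29. Fgfr1, another receptor of this family, was dim and differed by 0.49 (adjusted p = 0.170) on a probe set marked _s_at, which can share probes with related transcripts. Without such probe sets it differed by 0.22, and with the mean of its 3 probe sets by 0.28.

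Of 8 other proteoglycan core proteins, 0 passed with limma and 0 had an unadjusted p under 0.05, against 17.1% of all genes. Of these 8 genes, 7 had a mean under 6 in both groups, which limits what can be seen of them. Nrp1 was lower on all 4 of its probe sets, and on the brightest it read 7.71, 6.26 and 7.52 in NFAT1 shRNA cells, against 9.41, 8.98 and 9.20 in control cells.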
